A study of Mus musculus with 6 samples.

Results

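Transcripts of 53 genes that repair damaged DNA were measured by RNA sequencing in mouse germinal vesicle oocytes, which are grown oocytes held in meiotic prophase. The genes were chosen by symbol from a deposited table of raw read counts with 24369 rows, and all 53 have a row. Per the labels there were 3 groups of 2 libraries. The first received the azo dye Sudan I and the pineal hormone melatonin. The second received Sudan I alone, and the third was the control. The strain and age of the mice, the dose, route and length of exposure, and the number of oocytes or animals behind a library are not given in these sources, so every p-value below measures only the spread between these libraries, which may be technical.

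DNA repair is divided by the kind of damage. Base excision repair removes single oxidised or deaminated bases, nucleotide excision repair cuts out bulky adducts, and mismatch repair corrects replication errors. Breaks through both strands are closed either by end joining or by homologous recombination, the Fanconi anaemia pathway removes crosslinks between strands, and a prophase oocyte, which carries replicated chromosomes and is arrested before its meiotic divisions, stores the transcripts of these proteins for those divisions and the early embryo.

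Library totals ran from 20669373 to 26065453 counts, and 16203 to 17006 genes were detected per library. Levels are given as CPM (the counts of a gene relative to the size of its library, on the usual counts-per-million scale) after scaling by the trimmed mean of M-values (TMM). The 8 oocyte markers, among them Gdf9, Bmp15 and Zp3, summed to 22890 to 25145 CPM per library. The 20 cumulus and granulosa markers summed to 678 and 741 CPM with melatonin, 681 and 677 CPM with Sudan I and 656 and 706 CPM in control. Of these, Fshr, Foxl2, Cyp19a1 and Amh were the 4 defining markers. They summed to 24.2 and 48.7 CPM with melatonin, 28.6 and 28.9 CPM with Sudan I and 38.5 and 40.3 CPM in control. The sums hide differences between markers, and Serpine2 alone held 256 to 308 CPM. Amh had 5.24 and 21.7 CPM with melatonin, 7.87 and 6.85 CPM with Sudan I and 19.2 and 21.2 CPM in control. Cyp19a1 had 13.5 and 19.3 CPM, 15.8 and 16.2 CPM, and 13.6 and 11.7 CPM in the same order. Inha had 27.8 and 92.9 CPM with melatonin, 41.5 and 21.1 CPM with Sudan I and 41.8 and 56.7 CPM in control. The part of these markers in the results below was not tested. Theca and stroma markers summed to 1.28 to 3.10 CPM and blood and immune markers to 0.837 to 1.5 CPM, with Hba-a1 and Hbb-bs at 0 in the 6 libraries. In the RNA of a whole library, fewer cells of a type and less RNA per cell cannot be told apart.

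Of the 53 repair genes, 52 passed the filter on low counts and were tested. The exception was Tdg, which encodes thymine DNA glycosylase, an enzyme that removes mispaired thymine and oxidised methylcytosine. Tdg had 0 and 2 counts in the libraries with melatonin, 0 and 0 with Sudan I and 0 and 0 in control. A count of 0 allows up to 3 counts, or 0.114 to 0.148 CPM in these libraries, and that limit covers counting error only. It does not cover reads that match several places in the genome. In the GENCODE M21 annotation of GRCm38, 85.8% of the 50-base stretches of the Tdg coding sequence also occur in transcripts of other annotated genes. These include 3 processed pseudogenes, reverse-transcribed copies without introns: Gm9855 with 99.2% identity to the coding sequence over the aligned bases, Gm5597 with 99.3% and Tdg-ps with 98.7%. Coding bases 121 to 240 of Tdg, which lies on chr10:82629828-82650799, are set beside the copies on chr10:42054113-42055306, chr7:76244746-76245938 and chr15:82516311-82519278. Capitals mark bases at which a copy differs from Tdg.
Tdg: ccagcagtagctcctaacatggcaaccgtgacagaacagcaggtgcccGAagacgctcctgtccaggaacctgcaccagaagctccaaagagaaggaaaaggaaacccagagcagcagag
Gm9855: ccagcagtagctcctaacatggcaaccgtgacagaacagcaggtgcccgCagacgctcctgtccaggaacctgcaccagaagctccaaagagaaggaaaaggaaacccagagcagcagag
Gm5597: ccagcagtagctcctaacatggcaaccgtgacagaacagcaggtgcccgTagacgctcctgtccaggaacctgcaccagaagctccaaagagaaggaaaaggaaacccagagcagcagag
Tdg-ps: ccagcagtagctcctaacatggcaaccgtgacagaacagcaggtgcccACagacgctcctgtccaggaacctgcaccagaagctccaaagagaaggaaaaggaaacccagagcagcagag
Outside the 2 capitalised positions of Tdg the 4 stretches are the same. Gm9855 has a row in the table and also had 0 counts in the 6 libraries. How the authors counted reads that fit several loci is not stated in these sources, so the value of Tdg is not read as a level. The same check found shared stretches for Pcna (63.6% of its coding sequence, with Pcna-ps2) and Rpa3 (32.8%, with Gm6195), whose levels are uncertain for that reason. Apex1 shares 67.8% with Pip4p1, listed in the table as Tmem55b, which overlaps it on the opposite strand; whether the counting used strand is not given.

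Levels of different genes were compared per kilobase of merged exons (CPM per kb). The 52 tested repair genes spanned a 212-fold range, with a median of 11.5 CPM per kb. Ddb1, the adaptor of a ubiquitin ligase that binds ultraviolet damage, was highest at 123 CPM per kb ± 5.62 (SD, n = 6). Rpa1, the large subunit of the protein that coats single-stranded DNA, had 73.2 ± 1.59 CPM per kb. Msh6, which recognises base mismatches, had 72.0 ± 1.54 CPM per kb, and its libraries overlapped those of Rpa1. Rad50, of the complex that binds broken ends, had 55.5 ± 3.62 CPM per kb and overlapped Xrcc5, the larger Ku subunit, at 54.7 ± 4.75 CPM per kb. These 5 genes stood above 50 CPM per kb, 23 lay between 10 and 50, 23 between 1 and 10, and Neil1, a glycosylase for oxidised bases, was lowest at 0.584 ± 0.167 CPM per kb. With the longest annotated transcript as the length, Xrcc1 stood at 73.5 and Rpa2 at 51.2 CPM per kb. The order and the counts in each range therefore depend on the length used. Set against every tested gene with an annotated length, Ddb1 stood at percentile 97.9 and Neil1 at 20.6, and 42 of the 52 repair genes were above the median. Of the 51 steps between neighbours in the order of the 52 tested genes, 7 separated genes whose 6 libraries did not overlap.

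**Figure D1:**
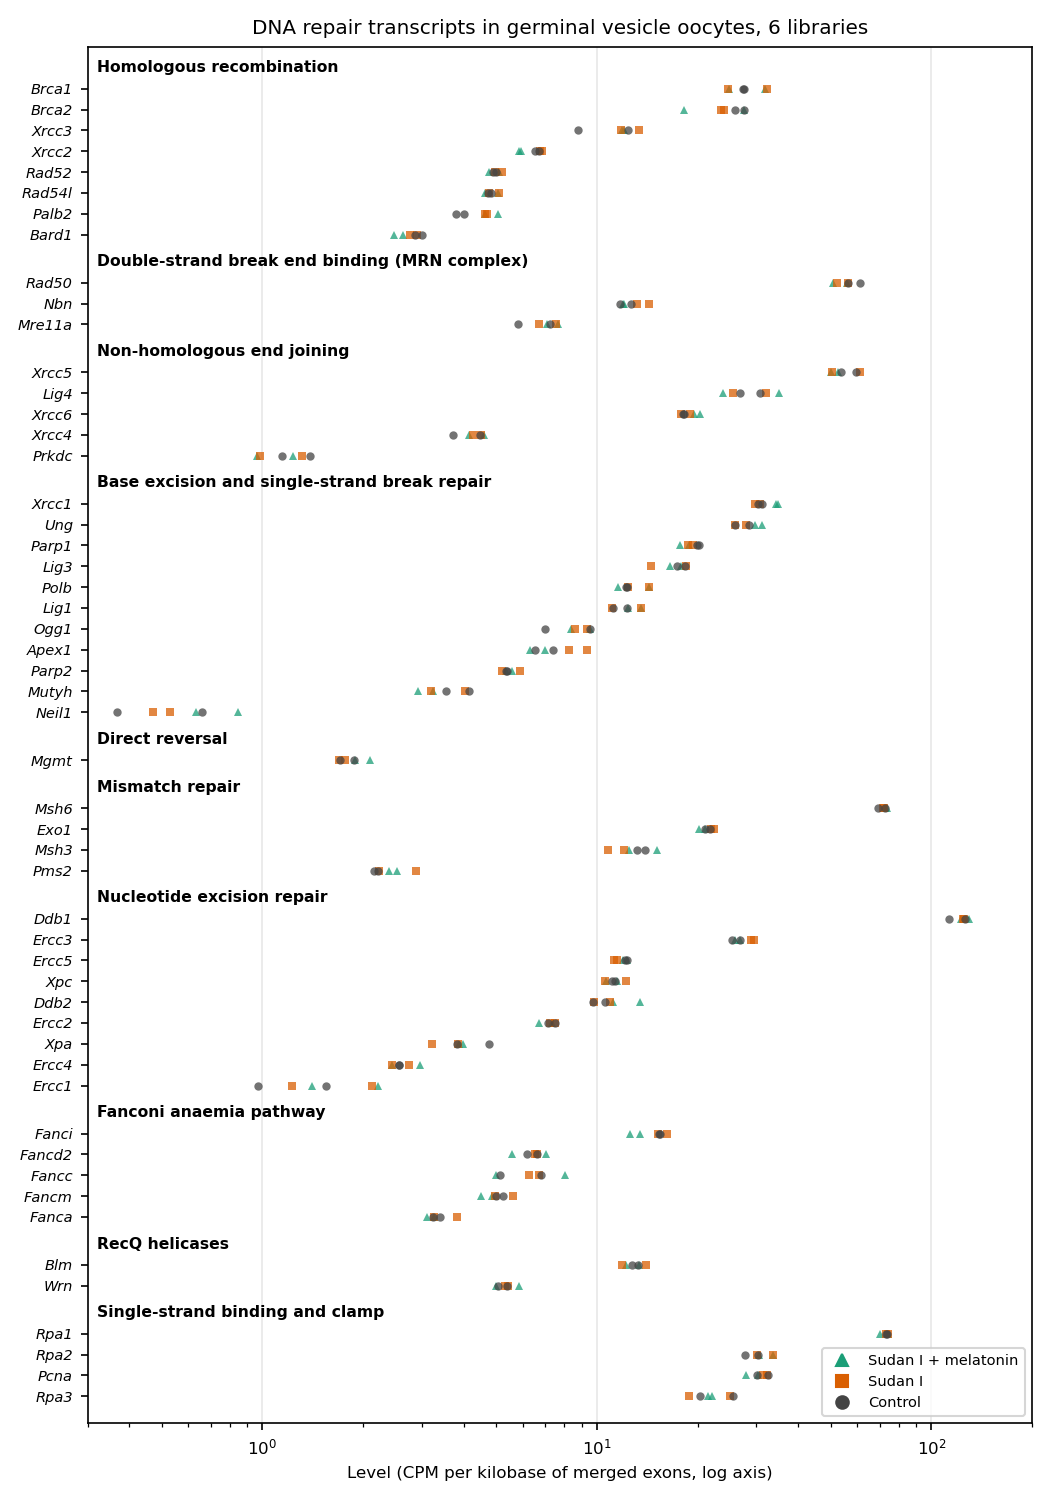
Level of each of the 52 tested DNA repair genes in each of the 6 libraries (x axis, CPM per kilobase of merged exons, log scale), grouped by pathway and ordered within it. Triangles are Sudan I plus melatonin, squares Sudan I and circles control. Ddb1 is highest at 123 CPM per kb and Neil1 lowest at 0.584, and the 6 points of a gene lie close together next to the differences between genes.

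The pathways differed in which steps were well represented. In base excision and single-strand break repair, Xrcc1, the scaffold for ligation, led with 31.9 CPM per kb ± 2.17 (SD, n = 6), followed by Ung, which removes uracil, with 28.2 ± 2.09 and Parp1, the sensor of strand breaks, with 19.1 ± 0.909. Ogg1, the glycosylase for oxidised guanine, had 8.74 ± 0.980 CPM per kb and Mutyh, for adenine opposite it, 3.51 ± 0.492. Neil3, another glycosylase for oxidised bases that is not among the 53, had 46.3 ± 3.87 CPM per kb, above all of these. In nucleotide excision repair, the helicase gene Ercc3 had 27.2 ± 1.65 CPM per kb and its partner in the same transcription factor complex, Ercc2, 7.25 ± 0.294, while the damage verifier Xpa had 3.92 ± 0.491. In homologous recombination Brca1 had 28.1 ± 3.30 and Brca2, the loader of the strand-exchange filament, 24.5 ± 3.50 CPM per kb. The other 6 recombination genes lay between 2.77 CPM per kb for Bard1 and 11.7 for Xrcc3. In the Fanconi anaemia pathway Fanci led with 14.7 ± 1.39 CPM per kb, and Fanca, of the ubiquitin ligase core, had 3.34 ± 0.248. Of the RecQ helicases, Blm had 12.9 ± 0.804 and Wrn 5.34 ± 0.309 CPM per kb. Mgmt, which takes methyl groups off guanine directly and is used up in doing so, had 1.84 ± 0.155 CPM per kb.

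Partners of the same complex stood at unequal transcript levels. The pairs were picked by known complexes with the levels in view, so the ratios are a description. The Ku heterodimer, which caps broken ends, had 2.92 times as much Xrcc5 as Xrcc6 per kb (SD 0.378, 6 libraries), and the ratio was 2.48 and 2.70 with melatonin, 2.65 and 3.43 with Sudan I and 2.98 and 3.28 in control. Prkdc, the kinase that Ku recruits, stood at 1.17 CPM per kb ± 0.175 (SD, n = 6), with 38.2 to 62.5 times as much Xrcc5. In the complex of Rad50, Mre11a (its nuclease) and Nbn (its adaptor), Rad50 exceeded Mre11a by 6.65 to 10.5 times and Nbn by 3.66 to 5.20 times. Brca1 exceeded Bard1, its obligate partner in the ubiquitin ligase, by 8.95 to 12.9 times, and Ddb1 exceeded Ddb2, the subunit that touches the lesion, by 9.63 to 12.7 times. Lig4, the end-joining ligase, exceeded its stabilising partner Xrcc4 by 5.67 to 8.29 times. Ercc4 and Ercc1, which form a nuclease, stood at a ratio of 1.10 to 2.65, and Xrcc1 and Parp1, at a mean of 1.67, were the pair nearest to equal. Taking the longest annotated transcript as the length kept Xrcc5 above Xrcc6, at 2.14 times. It turned Ercc4 over Ercc1 to 0.959, against 1.80 on merged exons. It also moved Msh6 over Msh3 to 2.15, against 5.64, Brca2 over Palb2 to 3.55, against 5.55, Rpa1 over Rpa2 to 1.57, against 2.37, and Rpa1 over Rpa3 to 2.17, against 3.33. Xrcc1 over Lig3 became 3.50, against 1.87, and Xrcc1 over Parp1 2.81, against 1.67, so the sizes of these ratios depend on the length used.

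Within a pair the ratio needs no length to be compared between libraries. The Xrcc1 to Parp1 ratio was 1.94 and 1.84 with melatonin, 1.59 and 1.59 with Sudan I and 1.5 and 1.57 in control, and these did not overlap between any 2 of the 3 groups. That was so for 1 pair of 15 (6.67%), while by level it was so for 6.3% of all tested genes. Ratios of other gene pairs were not computed, so no background for ratios is given here. Brca2 over Palb2, which tethers Brca2 to Brca1, was 5.45 and 3.93 with melatonin, 5.002 and 5.18 with Sudan I and 6.45 and 7.27 in control. Both exposed groups lay below control in that ratio. Across the 15 pairs and 3 comparisons, 16 of 45 (35.6%) did not overlap, 5 with the first group above and 11 below, against 32.1% for the levels of all tested genes over the same comparisons. No test was run on the ratios.

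**Figure D2:**
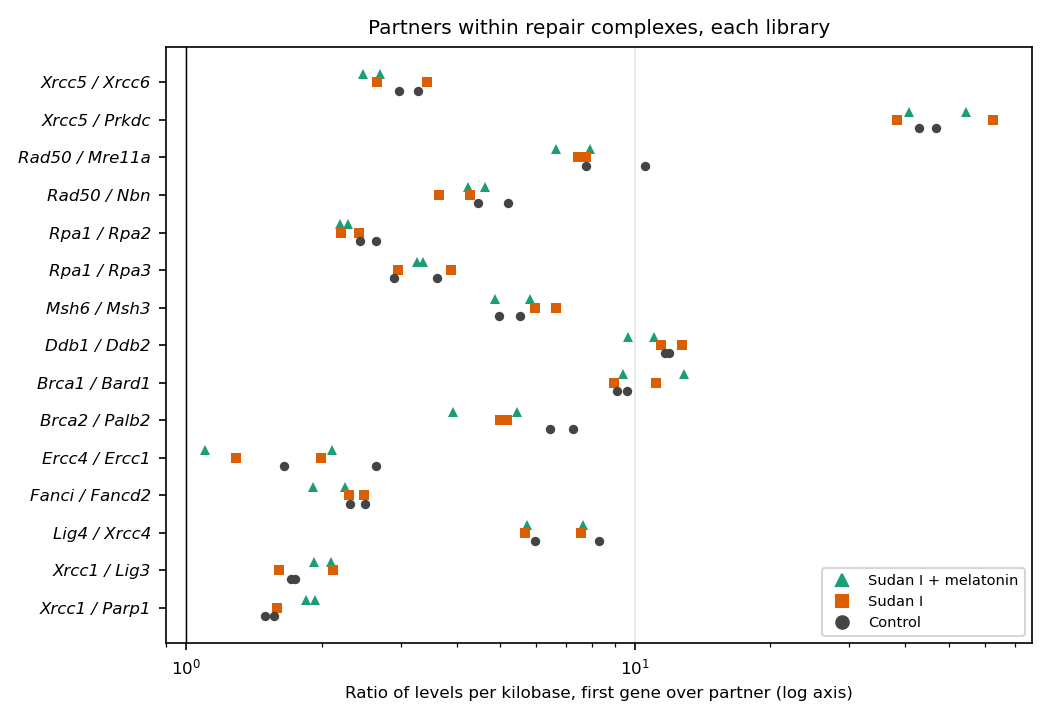
Ratio of the levels per kilobase of 2 partners of a repair complex (x axis, log scale) in each library, for 15 pairs. Triangles are Sudan I plus melatonin, squares Sudan I and circles control, and the vertical line marks equal levels. Xrcc5 over Prkdc is the most unequal pair at 38.2 to 62.5, and Xrcc1 over Parp1, at a mean of 1.67, the nearest to equal.

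Sudan I against control addresses whether exposure to the dye alone went with a different store of repair transcripts. None of the 52 tested repair genes passed the threshold of a Benjamini-Hochberg adjusted p under 0.05 in edgeR's quasi-likelihood test (adjusted p = 0.9999 for the lowest), where 0.00708% of all 14124 tested genes did. At an unadjusted p under 0.05 there were 0 repair genes, against 3.16% of all tested genes, and DESeq2 and limma-voom each called 0 as well. The log2 fold change was positive for 34 of 52 repair genes (65.4%), against 49.4% of all tested genes, and its median was 0.03, against -0.00 for all tested genes. Their fold changes ran from -0.28 to 0.41, none beyond 0.5 in size, while 13% of all tested genes were. All 5 Fanconi anaemia genes had a positive fold change, from 0.03 to 0.13, as did 7 of 9 in nucleotide excision repair and 6 of 8 in homologous recombination. In base excision repair 5 of 11 were positive. This did not extend to the repair genes outside the 53: of 5 further Fanc genes 1 was positive and 4 were negative, among them Fance at -0.10 and Fancg at -0.08, and over 87 further repair genes 43 were positive (49.4%). Both Sudan I libraries lay above both control libraries for 8 of 52 repair genes (15.4%), against 16.1% of all tested genes, and below them for 4 (7.69%), against 15.9%.

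Msh3, whose product recognises insertion and deletion loops, had the smallest p of the 52. Its level was 135 and 121 CPM with Sudan I, against 157 and 148 CPM in control. The groups did not overlap, and the log2 fold change was -0.25 (SE 0.12, edgeR adjusted p = 0.9999). Palb2 had 34.5 and 34.1 CPM with Sudan I, against 29.4 and 27.8 CPM in control, a log2 fold change of 0.26 (SE 0.14). Apex1, the endonuclease that cuts the site left by a glycosylase, had 11.7 and 13.3 CPM with Sudan I, against 10.5 and 9.30 CPM in control, a log2 fold change of 0.34 (SE 0.20). Palb2 and Apex1 lay above control in both Sudan I libraries, and neither passed the test. Tmem55b, which overlaps Apex1 on the opposite strand and shares 67.8% of its coding stretches, had 20.6 and 24.0 CPM with Sudan I. In control it had 21.8 and 24.9 CPM. Ercc3 had 82.1 and 83.6 CPM with Sudan I, against 71.9 and 75.9 CPM in control (0.16, SE 0.11). Xpa had 7.29 and 6.09 CPM with Sudan I, against 7.25 and 8.99 CPM in control (-0.28, SE 0.24). Rad50 had 303 and 281 CPM with Sudan I, against 303 and 328 CPM in control (-0.11, SE 0.10). For Xpa and Rad50 the second control library was the highest of the 4; without it their log2 fold changes were -0.12 and -0.05.

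Adding melatonin to the exposure addresses whether the repair transcripts of dye-exposed oocytes differed when the hormone was given too. This comparison, with Sudan I alone, shares the Sudan I libraries with the one above. Again 0 of 52 repair genes passed (smallest edgeR adjusted p = 0.9943), as did 0% of all tested genes, with DESeq2 and limma-voom calling 0 repair genes each. At an unadjusted p under 0.05 there were 2 repair genes of 52, 1 higher and 1 lower, against 3.83% of all tested genes. The fold change was positive for 21 of 52 (40.4%), against 48.8% of all tested genes, with a median of -0.02, against -0.01. Beyond 0.5 in size there was 1 repair gene, Neil1, against 13.1% of all tested genes. Both melatonin libraries lay above both Sudan I libraries for 10 genes (19.2%), against 14.8% of all tested genes, and below for 9 (17.3%), against 15.9%. In homologous recombination 7 of 8 fold changes were negative and in the Fanconi anaemia pathway 4 of 5, while 2 of the 5 further Fanc genes were negative and 3 positive. In nucleotide excision repair 6 of 9 were positive, after 7 of 9 for Sudan I versus control. In base excision repair 5 of 11 were positive in each comparison, and only Lig1 was positive in both.

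Fanci, which is clamped with Fancd2 onto crosslinked DNA, had 78.0 and 72.5 CPM with melatonin, against 93.6 and 87.9 CPM with Sudan I. The groups did not overlap. Its fold change was -0.27 on the log2 scale, with an SE of 0.11 and a 95% interval of -0.51 to -0.03 (edgeR adjusted p = 0.9943). Polg, which overlaps Fanci on the opposite strand and shares 3.86% of its coding stretches, had 32.7 and 39.5 CPM with melatonin, against 38.4 and 35.4 CPM with Sudan I. Fancd2 had 56.1 and 44.2 CPM with melatonin, against 51.7 and 52.5 CPM with Sudan I, so the partner of Fanci did not separate the groups.

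Msh3 had 170 and 140 CPM with melatonin, against 135 and 121 CPM with Sudan I. This gave 0.27 on the log2 scale, with an SE of 0.12 and a 95% interval of 0.01 to 0.54 (edgeR adjusted p = 0.9943), and 0.13 without melatonin library 1. The other mismatch repair genes stayed nearer 0: Msh6 had 321 and 315 CPM with melatonin, against 313 and 312 CPM with Sudan I, a log2 fold change of 0.03 (SE 0.09).

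Among base excision genes, Xrcc1 had 200 and 203 CPM with melatonin, against 173 and 180 CPM with Sudan I, a log2 fold change of 0.19 (SE 0.09). Ung had 163 and 170 CPM with melatonin, against 141 and 152 CPM with Sudan I (0.18, SE 0.10). Apex1 had 9.93 and 8.98 CPM with melatonin, against 11.7 and 13.3 CPM with Sudan I (-0.40, SE 0.20). These 3 genes act at successive steps, uracil removal, backbone cutting and sealing, and their values did not share a direction. Xrcc2, a recombination mediator, had 31.0 and 30.6 CPM with melatonin, against 35.6 and 35.3 CPM with Sudan I (-0.20, SE 0.14). Neil1, at a level near 1 CPM, had 1.58 and 1.18 CPM with melatonin, against 0.879 and 0.992 CPM with Sudan I. Its log2 fold change was 0.56, with a 95% interval of -0.62 to 1.73. The 95% intervals of Xrcc1, Ung, Apex1 and Xrcc2 included 0 as well, so none of these genes has a settled direction.

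Setting oocytes given Sudan I and melatonin against controls shares libraries with both comparisons above. It too gave 0 called repair genes of 52 (smallest edgeR adjusted p = 0.9562), where 0.00708% of all tested genes were called, and DESeq2 and limma-voom called 0 repair genes each. At an unadjusted p under 0.05 there were 2, 1 in each direction, against 4.6% of all tested genes. The fold change was positive for 27 of 52 (51.9%), against 48.9% of all tested genes, with medians of 0.02 and -0.01. Both melatonin libraries lay above both control libraries for 9 genes (17.3%), against 16.5% of all tested genes, and below for 8 (15.4%), against 17%.

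Palb2 had 37.2 and 34.0 CPM with melatonin, against 29.4 and 27.8 CPM in control, which is 0.32 on the log2 scale with an SE of 0.14 and a 95% interval of 0.01 to 0.63 (edgeR adjusted p = 0.9562). All 4 exposed libraries lay above both control libraries. Fanci had 78.0 and 72.5 CPM with melatonin, against 88.7 and 89.3 CPM in control, which is -0.24 on the log2 scale (SE 0.11, 95% interval -0.48 to -0.0037). Xrcc1 had 200 and 203 CPM with melatonin, against 177 and 182 CPM in control (0.17, SE 0.09). Ddb2 had 36.9 and 30.5 CPM with melatonin, against 29.0 and 26.6 CPM in control (0.28, SE 0.16), and 0.14 without melatonin library 1. Mutyh had 7.61 and 8.45 CPM with melatonin, against 10.8 and 9.22 CPM in control (-0.32, SE 0.22), and -0.20 without control library 1. Brca2 had 377 and 248 CPM with melatonin, against 353 and 375 CPM in control (-0.22, SE 0.16). The melatonin libraries of Brca2 lay on both sides of control, and without melatonin library 2 the fold change turned to 0.05.

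**Figure D3:**
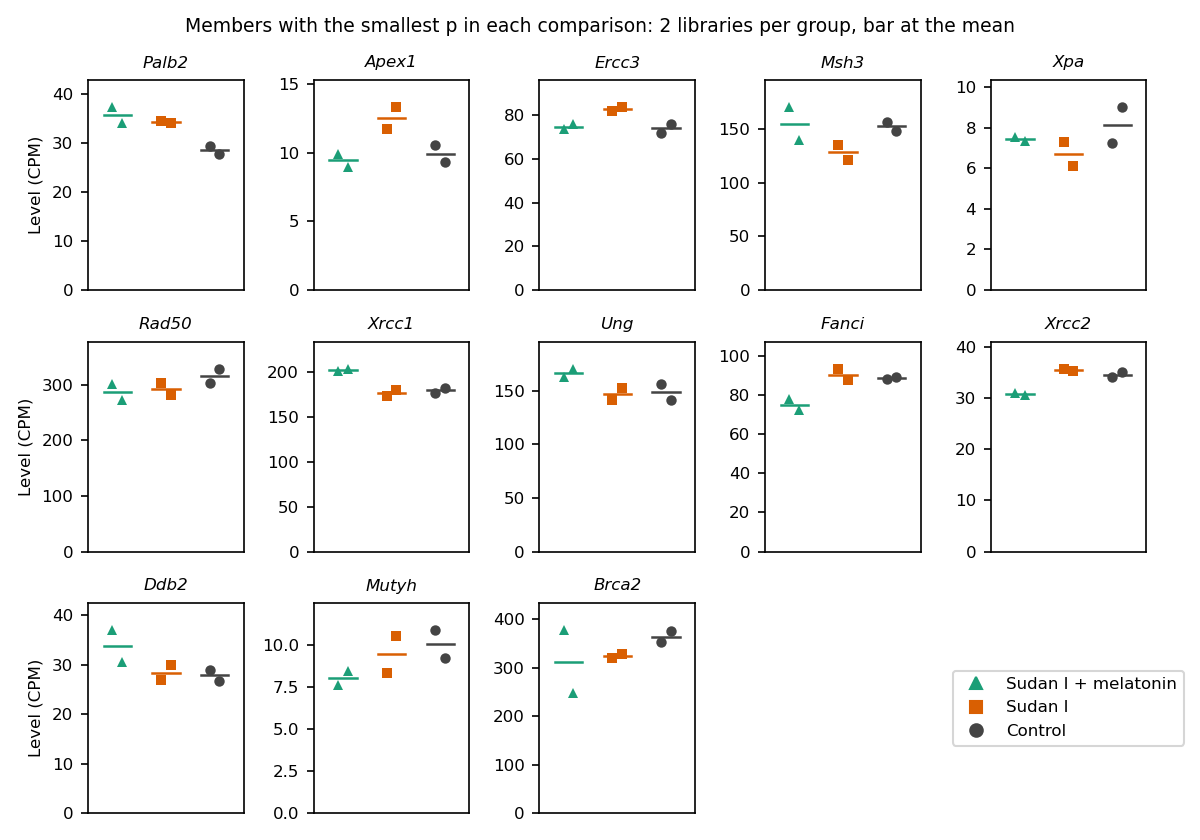
Level in CPM (y axis from 0) of the 13 repair genes named for the smallest p in a comparison, with 2 libraries per group as points and the group mean as a bar. Triangles are Sudan I plus melatonin, squares Sudan I and circles control. Msh3 is at 135 and 121 CPM with Sudan I, below the other groups, and the 2 melatonin libraries of Brca2 lie apart at 377 and 248 CPM.

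**Figure D4:**
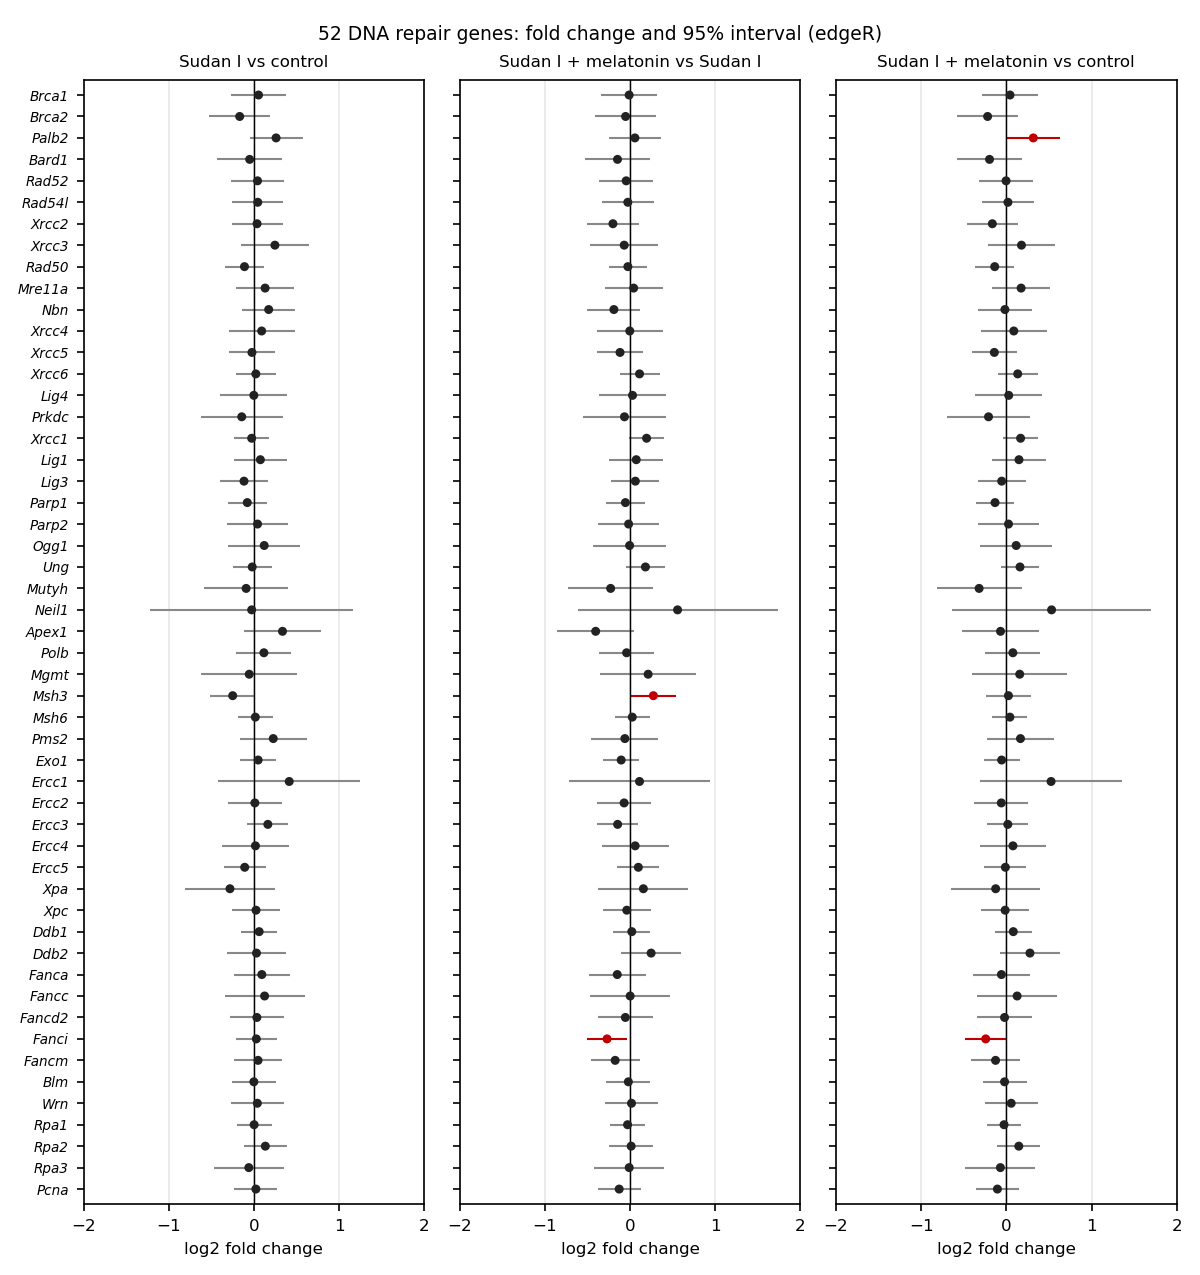
Log2 fold change (point) and 95% interval (line) of the 52 tested repair genes in the 3 comparisons, from the edgeR fit over 14124 genes. Red marks an unadjusted p under 0.05, which no gene reached for Sudan I versus control and 2 genes reached in each of the other comparisons, while no gene passed after adjustment.

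The intervals limit how large a difference could have been missed. For Sudan I versus control the 95% interval lay within 0.5 log2 units of 0 for 38 of 52 repair genes (73.1%), against 40.4% of all tested genes. For melatonin versus Sudan I it did so for 39 (75%), against 38.2%, and for melatonin versus control for 36 (69.2%), against 37.6%. The repair genes were more abundant than the rest, with a median level of 50.9 CPM against 17.1 CPM. Among genes at 10 CPM or more, 80.9% of 47 repair genes and 68.8% of 8270 tested genes had such an interval for Sudan I versus control. Rpa1 had the narrowest interval, -0.20 to 0.21, and Neil1 the widest, -1.22 to 1.17. Ercc1, the nuclease partner of Ercc4, came next in width at 3.81 and 6.63 CPM with Sudan I, against 4.83 and 3.01 CPM in control. For the 14 genes whose interval reached past 0.5, among them Prkdc, Mgmt, Pms2 and Ogg1, a difference of that size lay within the interval.

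**Figure D5:**
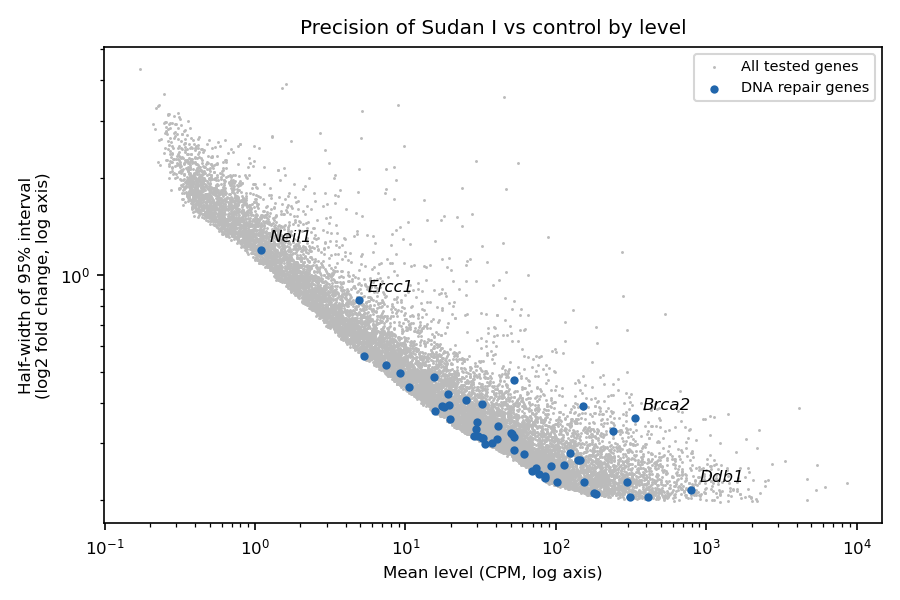
Mean level over the 6 libraries (x axis, CPM, log scale) against the half-width of the 95% interval of the log2 fold change for Sudan I versus control (y axis, log scale). Grey points are the 14124 tested genes and blue points the 52 repair genes, which follow the same trend, with Neil1 and Ercc1 the least precise of the blue points.

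The 250 bases before the RefSeq transcription start are shown for Palb2 and Fanci, 2 of the 3 repair genes that reached an unadjusted p under 0.05 in a comparison. The motifs searched on both strands were TTTGGCGC and TTTCCCGC (forms of the E2F site of replication genes), GCGCATGC (the core of the NRF1 site) and CCAAT, and a match is printed in capitals. Each sequence reads toward the RefSeq start. Palb2 lies on the reverse strand at chr7:122132947-122133196 and Fanci on the forward strand at chr7:79392088-79392337 (GRCm38.p6). In GENCODE M21 the Fanci gene starts at 79391929, so its window lies within the annotated gene. The Palb2 gene extends to 122132985 there, so its window overlaps the gene.
Palb2: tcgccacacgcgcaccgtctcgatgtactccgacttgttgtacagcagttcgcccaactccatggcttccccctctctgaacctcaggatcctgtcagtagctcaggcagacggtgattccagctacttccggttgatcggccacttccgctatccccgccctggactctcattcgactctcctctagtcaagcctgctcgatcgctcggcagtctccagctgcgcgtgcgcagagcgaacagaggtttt
Fanci: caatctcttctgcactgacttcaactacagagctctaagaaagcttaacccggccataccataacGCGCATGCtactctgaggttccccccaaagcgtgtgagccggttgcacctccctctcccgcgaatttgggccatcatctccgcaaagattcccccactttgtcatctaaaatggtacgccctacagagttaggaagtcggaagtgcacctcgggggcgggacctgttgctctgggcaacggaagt
The Fanci stretch holds 1 NRF1 core and the Palb2 stretch holds none of the motifs. A promoter was found for 42 of the 53 genes. GCGCATGC occurred in 7 of these 42 (16.7%), against 4.39% of 10686 tested genes with a promoter and 2.32% of all 27025, and either E2F form in 4 (9.52%), against 2.48% and 1.35%. CCAAT occurred in 24 (57.1%), against 36.4% and 34.5%. These shares describe the windows and no binding was measured.

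The rest of the DNA repair machinery was followed with 88 further genes listed by role, among them translesion polymerases, other glycosylases and further Fanconi genes. All passed the count filter but Paxx, which was not analysed here, and edgeR called 0 of 87 in each of the 3 comparisons, as did DESeq2 and limma-voom. At an unadjusted p under 0.05 there was 1 for Sudan I versus control, 2 for melatonin versus Sudan I and 4 for melatonin versus control, where 3.16%, 3.83% and 4.6% of all tested genes did so in the same order. The counts are not above that background, and the 7 genes are given as values only. Ube2t, the conjugating enzyme that ubiquitinates Fanci and Fancd2, had 128 and 127 CPM with Sudan I, against 107 and 99.8 CPM in control (0.30, SE 0.10, edgeR adjusted p = 0.9999). Top3a, the topoisomerase that works with Blm, had 23.3 and 26.0 CPM with melatonin, against 30.4 and 32.6 CPM with Sudan I (-0.36, SE 0.15), and Swi5, a recombination cofactor, 112 and 126 CPM, against 99.9 and 99.7 CPM (0.25, SE 0.11). Rif1, which protects broken ends from resection, had 254 and 203 CPM with melatonin, against 281 and 300.2 CPM in control (-0.35, SE 0.12), and -0.19 without melatonin library 2. Mlh3, a mismatch repair endonuclease of meiosis, had 5.48 and 5.35 CPM with melatonin, against 8.02 and 10.1 CPM in control (-0.75, SE 0.26). Gen1, which resolves recombination junctions, had 9.93 and 10.04 CPM with melatonin, against 12.7 and 14.1 CPM in control (-0.43, SE 0.19). Nhej1, a scaffold of end joining, had 25.2 and 30.9 CPM with melatonin, against 20.5 and 21.1 CPM in control (0.43, SE 0.16), and 0.28 without melatonin library 2. These 7 genes were picked by their p in the comparison given, so it adds nothing that their libraries did not overlap there. Of all tested genes, 32.0% did not overlap for Sudan I versus control, 30.7% for melatonin versus Sudan I and 33.5% for melatonin versus control. None of the 7 passed the threshold.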

How the data were processed

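Raw read counts per gene symbol were deposited by the authors as 1 table with a column for each of 6 libraries. The library preparation was a standard Illumina protocol, per the labels; the aligner, counting rule, strand setting and genome build are not stated there. In 27 rows, holding 0.256% of counts, a date stood in place of a symbol. Genes were kept by filterByExpr (minimum count 10) in edgeR 4.0.16 (R 4.3.3), which left 14124, and fitted with a mean per group by the quasi-likelihood method, with TMM scaling and 3 residual degrees of freedom. P-values were adjusted over all 14124 genes. DESeq2 1.42.0 and limma-voom (limma 3.58.1), 2 other scalings, 2 filters, pairs of groups alone, a replicate block and leaving out each library were tried as alternatives. The scripts were tested on simulated data. Positions, lengths and shared 50-base stretches came from GENCODE M21 (GRCm38), and promoters from RefSeq (GRCm38.p6), matched by symbol. The header tags carry a second number that differs from the title number in 3 libraries, and it was not used. Genes named per comparison are those with an unadjusted p under 0.05, filled to 3 per direction, plus the highest of each pathway and up to 4 further repair genes per comparison; genes named beyond these were chosen after their values were seen. The 53 members, the lists and the pairs were chosen with earlier results of these data known. Library pairs within a group differed by more than sampling noise, with a chi-square per degree of freedom of 13.6 to 22.0. Some sequence results for 1 member are not reported here.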

Additional observations from a re-analysis of the deposited data

How the results depend on the processing

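No repair gene and no further repair gene was called in any of the 3 comparisons under any of the 14 alternatives run. Of 350 fold changes of the genes named by comparison, recomputed under the alternatives, 349 kept their direction, and the exception was Brca2 without melatonin library 2. Over all tested genes, edgeR called 1 for Sudan I versus control, 0 for melatonin versus Sudan I and 1 for melatonin versus control. In the same order DESeq2 called 11, 9 and 12, and edgeR without a filter on low counts called 88, 67 and 93; the cause was not tested. Leaving out each library in turn gave 1 to 4, 0 to 1 and 1 to 3 calls. With 1 library left in a group, that library is assumed to vary like the others. With the replicate number as a block, the calls over all genes were 1, 0 and 1, and 1, 2 and 1 repair genes had an unadjusted p under 0.05. The correlations of the deviations of same-numbered libraries were 0.05, 0.07 and -0.06 between pairs of groups. Libraries were matched by title number, so a pairing along the header tags was not tested. These values cannot show whether libraries were prepared together. The 10 highest genes per kilobase kept 9 or 10 members under every alternative. With 2 libraries per group, levels under 10 CPM were the least precise.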

Other observations

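Some repair genes differed between the 2 libraries of a group, with melatonin and in the other groups. Ercc1 had 6.92 and 4.37 CPM with melatonin, 3.81 and 6.63 CPM with Sudan I and 4.83 and 3.01 CPM in control. Fancc, a subunit of the Fanconi core, had 41.8 and 66.9 CPM with melatonin, 52.5 and 56.3 CPM with Sudan I and 56.8 and 42.9 CPM in control, and Lig4 had 182 and 124 CPM with melatonin, 133 and 167 CPM with Sudan I and 160 and 139 CPM in control. The median absolute log2 ratio between the 2 libraries of a group over the 52 repair genes was 0.114 with melatonin, 0.110 with Sudan I and 0.0847 in control, against 0.209, 0.168 and 0.157 over all tested genes. Over the 6 libraries the highest level was a median of 1.22 times the lowest, and it was over 1.5 times for 5 of the 52, Neil1, Ercc1, Fancc, Brca2 and Xrcc3. Summed over the 53 genes, the repair transcripts held 5201 and 4884 CPM with melatonin, 5054 and 5033 CPM with Sudan I and 5085 and 4992 CPM in control.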
